A study of Homo sapiens with 6 samples.

Results

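The nuclear genes for the proteins of the mitochondrial ribosome were followed in T24, a cell line from a human urinary bladder carcinoma, after knockdown of the E3 ubiquitin ligase TRAIP. Members were all genes of the deposited table whose symbol is MRPL or MRPS followed by a number and, in some, a letter A to C. That rule, which used no measured value, found 78 of 33542 genes, on 21 chromosomes. All 78 passed the filter on low counts that left 18685 genes to test. Exonic bases are shared with another annotated gene in 40 members, over 10% of them in 26, and RefSeq names pseudogenes after 42, so counts of these members may include reads of other genes.

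Cells had been transfected by lipofection, for the siTRAIP group (3 libraries) with small interfering RNA directed at TRAIP and for the siNC group (3 libraries) with a control one. Both groups were otherwise the same line, kept in RPMI medium with fetal bovine serum, and libraries came from a stranded mRNA kit. The labels do not say whether replicates were separate cultures, so p-values measure the spread between these libraries only. By the title of the series, TRAIP attaches ubiquitin to MYC, a transcription factor long studied for its part in ribosome and mitochondrial gene expression.

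Mitochondrial ribosomes translate the few messenger RNAs that the mitochondrial genome encodes, all of them for core subunits of the respiratory chain and ATP synthase. Their ribosomal RNAs are transcribed inside the organelle, but every protein of both subunits is encoded in the nucleus, made in the cytosol and imported. Some of these proteins descend from the bacterial ribosome, and others were added in the mitochondrial lineage. Of the members, 26 belong to the small subunit and 51 to the large one, where MRPS18A and MRPS30 sit in spite of their names. MRPS36, the remaining member, is now known as a component of the alpha-ketoglutarate dehydrogenase complex. By the structure-based names of the proteins, 46 are homologues of bacterial ribosomal proteins and 31 are specific to mitochondria.

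TRAIP itself had 12.5, 14.7 and 11.6 CPM (counts relative to library sizes scaled by TMM factors, a correction for differences in composition) in siTRAIP libraries 1 to 3, against 26.6, 28.3 and 28.4 CPM in siNC libraries 1 to 3. Its log2 fold change of -1.11 with an SE of 0.07 (edgeR adjusted p = 6.74e-10) fits the labels. Total gene counts were 39111793 to 70439496 in siTRAIP libraries and 54818483 to 58066330 in siNC libraries. siTRAIP replicate 3, the deepest library, stood apart: a chi-square of gene counts, divided by its degrees of freedom, came to 17.3 and 18 against the other siTRAIP libraries, and to 3.3 to 7.95 in the other pairs of a group. KRT8 was at 1520 to 1713 CPM in siTRAIP and 1662 to 1702 CPM in siNC, and KRT18 averaged 514 ± 22.9 CPM in siTRAIP and 497 ± 3.86 CPM in siNC. KRT7 fell, at 1152 ± 44.2 CPM in siTRAIP and 1308 ± 7.3 CPM in siNC (SD, n = 3 each), with a log2 fold change of -0.18 (edgeR adjusted p = 0.00375) and groups that did not overlap. Its part in the results on members was not tested. Of 14 urothelial and epithelial markers found, 9 could be tested, while UPK1A, UPK3A, TP63, KRT5 and CDH1 had at most 7 reads in any library. None of the 3 leukocyte or 4 endothelial markers found passed the filter, with at most 6 and 4 reads. COL1A1, a fibroblast marker, had 1.03, 0.923 and 4.26 CPM in siTRAIP and 1.05 to 1.11 CPM in siNC.

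The sequences below show, for the members that changed, the transcription factor words found near their starts, the feature compared across the family further on. They were read from RefSeq promoter windows on GRCh38.p14, 250 bases before to 50 after each annotated start, which matched 69 of the 78 members with 85 windows. Capitals mark the word, each line is read 5′ to 3′ on the strand of the gene, and 10 flanking bases are given unless the window ended. Coordinates cover the printed stretch, flanks included. The core ETS word CCGGAAG, which on the opposite strand reads CTTCCGG and is bound by factors such as GABP, stood 3 times before the start of MRPS34, at chr16:1773189-1773215, chr16:1773147-1773173 and chr16:1773137-1773163, minus strand. It stood on both strands of the MRPL58 window, at chr17:75012467-75012493 and chr17:75012652-75012678, plus strand, and once in MRPL38, at chr17:75905076-75905102, minus strand.
MRPS34, first ETS word: ctcttcctcgCTTCCGGccgcgaccga
MRPS34, next ETS word: acaccggcctCTTCCGGtgacttccgg
MRPS34, ETS word nearest the start: cttccggtgaCTTCCGGccggaccgct
MRPL58, distal ETS word: tcggggcactCTTCCGGtagcagctcg
MRPL58, proximal ETS word: gaagcgcccgCCGGAAGcagtcgcaag
MRPL38, ETS word: ccaacgggcaCTTCCGGagccgggcgt

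The YY1 word AAGATGGCG stood just after the start in MRPL42 (chr12:93467512-93467540, plus strand), MRPL22 (chr5:154941098-154941122, plus strand) and MRPL38 (chr17:75904860-75904888, minus strand). MRPL22 also held the E-box CACGTG, the word bound by MYC and other basic helix-loop-helix factors, 176 bases before its start at chr5:154940887-154940912. MRPL34 held the NRF1 word with any base in its centre, at chr19:17305627-17305656 and chr19:17305727-17305756, plus strand. MRPL17, shown because it alone among the members held the full NRF1 palindrome, had it at chr11:6683402-6683431, minus strand. None of these words stood in the MRPS5 windows.
MRPL42, YY1 word: ggattgaaacAAGATGGCGggttcgtggt
MRPL22, YY1 word: gggagggcgaAAGATGGCGgcggca
MRPL38, YY1 word: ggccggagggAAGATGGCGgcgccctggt
MRPL22, E-box: ttcggaagccCACGTGctttcggcct
MRPL34, first NRF1 word: aatgccttgtGCGCACGCGCttgctcagaa
MRPL34, second NRF1 word: cgcctctgttGCGCAGGCGCagaactacaa
MRPL17, NRF1 palindrome: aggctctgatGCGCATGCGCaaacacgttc

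Few members changed with TRAIP knockdown, and those that did lay between 0.766-fold and 1.16-fold of their siNC level. The large-subunit genes MRPL42, MRPL34 and MRPL38 fell, and the small-subunit genes MRPS5 and MRPS34 and the large-subunit genes MRPL22 and MRPL58 rose. In the edgeR fit over all genes, 4 members rose (5.13%, against 7.47% of all genes tested) and 3 fell (3.85%, against 5.34%). Together 7 of 78 members (8.97%) passed an adjusted p of 0.05, against 12.8% of all genes tested. In bulk RNA, fewer cells of a kind and less RNA per cell cannot be told apart. With library sizes left at total counts, without TMM factors, 1 member rose (1.28%) and 16 fell (20.5%), where 4.48% of all genes rose and 11% fell. In either direction that was 21.8% of members, against 15.5% of all genes. limma on log2(RPKM + 0.1) called 0 members higher and 7 lower (8.97%), where 2.43% of all genes rose and 5.71% fell. DESeq2 gave 3 rises and 3 falls among members (9.63% and 6.27% of its genes). Without siNC replicate 1 edgeR called 2 members (2.56%, against 7.74% of all genes), without siTRAIP replicate 1 it called 3 (3.85%, against 9.43%) and without siNC replicate 3 it called 4 (5.13%, against 8.58%). The TMM factors were 0.971 to 0.987 in siTRAIP and 1.01 to 1.03 in siNC.

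**Figure D1:**
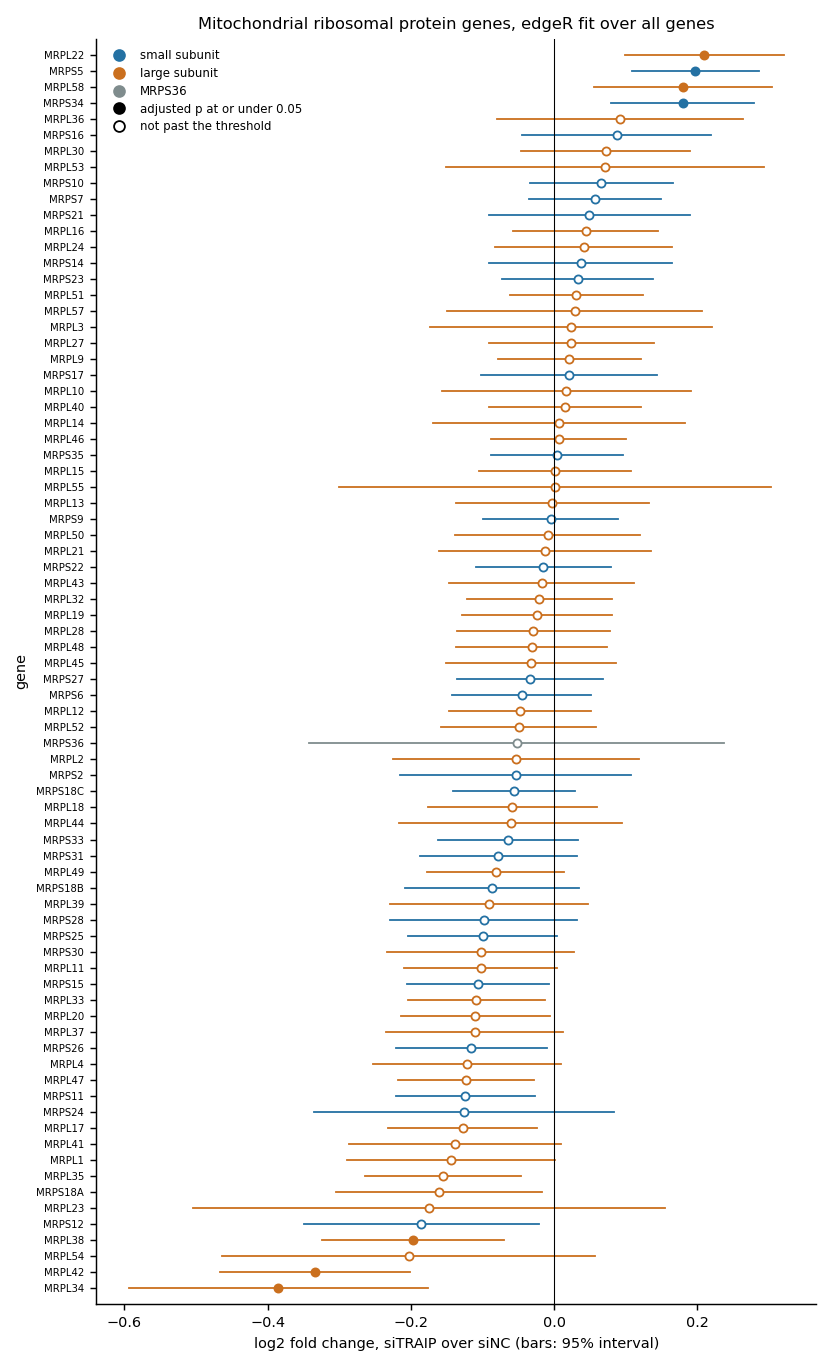
Log2 fold change of each of the 78 members, siTRAIP over siNC, from the edgeR fit (x axis), with genes ordered by value down the y axis. Bars are 95% intervals, colours give the subunit, and filled points passed an adjusted p of 0.05. The filled points are the 4 highest members and 3 of the lowest 4, and most intervals cross 0.

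MRPL42, a protein of the large subunit specific to mitochondria, had 19.9, 18.2 and 19.5 CPM in siTRAIP libraries, against 25.7, 24.1 and 22.8 CPM in siNC libraries. Every siTRAIP library lay below every siNC library. The level was 0.793-fold that of siNC (95% interval 0.724 to 0.87), which edgeR put at -0.33 on the log2 scale with an SE of 0.06 (adjusted p = 8.29e-04). MRPL42 kept its direction and passed in all 15 alternative settings, with log2 fold changes of -0.39 to -0.22 and adjusted p values (edgeR, DESeq2 or limma) of 1.24e-05 to 0.0444. The gene spans 12:93467488-93516213 on the plus strand (GRCh38). Its union of exons is 16393 bases long, 1.72% of it shared with the noncoding gene RN7SL737P, and RefSeq names 6 pseudogenes after it.

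MRPL34, the homologue of the small bacterial protein bL34, had 4.71, 5.12 and 5.09 CPM in siTRAIP libraries and 7.13, 6.32 and 6.1 CPM in siNC libraries. The groups did not overlap, and siNC replicate 1 was the highest library. The level was 0.766-fold that of siNC (95% interval 0.663 to 0.885), which edgeR put at -0.38 on the log2 scale with an SE of 0.10 (adjusted p = 0.0121), the largest change of any member in this fit. The call was lost without siNC replicate 1 (-0.32, edgeR adjusted p = 0.0956) and without siTRAIP replicate 1 (-0.35, edgeR adjusted p = 0.0507). MRPL34 lies at 19:17292609-17306843 on the plus strand, and 13.2% of its exonic bases are shared with ABHD8 on the opposite strand. Whether counting used strand is not given in the sources used here, so the value of MRPL34 is uncertain.

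MRPL38, a mitochondria-specific protein of the central protuberance of the large subunit, had 85.6, 91.2 and 75.4 CPM in siTRAIP libraries and 95, 92.4 and 101.4 CPM in siNC libraries. siTRAIP replicate 2 came within about 1 CPM of siNC replicate 2, although the groups did not overlap. In the edgeR fit it had a log2 fold change of -0.20 with an SE of 0.06 (adjusted p = 0.0389). Without siTRAIP replicate 3, the lowest library, it was -0.12 and did not pass (edgeR adjusted p = 0.0645). The call was also lost without siTRAIP replicate 1, siNC replicate 1 or siNC replicate 3 (edgeR adjusted p = 0.0941, 0.0959 and 0.158). MRPL38 passed in 8 of 15 alternatives, and not with limma on log2(RPKM + 0.1) or log2(RPKM + 1). In MRPL38, at 17:75898643-75905413 on the minus strand, 37.5% of exonic bases are shared with AC087289.3 on the same strand and 4.7% with AC087289.2 on the opposite one. Its counts cannot be told apart from theirs over those bases.

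MRPS5, the homologue of the bacterial decoding-site protein uS5, had 293, 277 and 269 CPM in siTRAIP libraries and 239, 247 and 245 CPM in siNC libraries. All siTRAIP libraries were above all siNC libraries. The level was 1.15-fold that of siNC (95% interval 1.08 to 1.22), which edgeR put at 0.20 on the log2 scale with an SE of 0.04 (adjusted p = 0.00271). MRPS5 passed in 13 of 15 alternatives, and not with limma on RPKM at either pseudocount, where the highest adjusted p was 0.0714. It lies at 2:95087207-95149434 on the minus strand, and 8.19% of its exonic bases are shared with ZNF514 on the same strand.

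MRPS34, a small-subunit protein specific to mitochondria in which inherited mutations cause a combined respiratory chain deficiency, had 120.4, 119 and 105.6 CPM in siTRAIP libraries and 100.7, 102.1 and 101.7 CPM in siNC libraries. siTRAIP replicate 3 lay closest to the siNC libraries, which differed among themselves by less than 2 CPM. In the edgeR fit it had a log2 fold change of 0.18 with an SE of 0.05 (adjusted p = 0.0143), and without siTRAIP replicate 3 it was 0.24. MRPS34 lost its call when any 1 of the other 5 libraries was left out, with edgeR adjusted p values between 0.0533 and 0.0997. It passed in 7 of 15 alternatives, and not without TMM factors or with limma on RPKM at either pseudocount. MRPS34 lies at 16:1771890-1773155 on the minus strand, and no other annotated gene shares its exons.

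MRPL22, whose bacterial homologue uL22 lines the tunnel through which the growing peptide leaves the ribosome, had 35.7, 34.3 and 36.4 CPM in siTRAIP libraries and 29.1, 31.1 and 31.8 CPM in siNC libraries. The groups did not overlap, and siNC replicate 1 was the lowest library. The level was 1.16-fold that of siNC (95% interval 1.07 to 1.25), which edgeR put at 0.21 on the log2 scale with an SE of 0.05 (adjusted p = 0.0102). Without siNC replicate 1 it was 0.17 and did not pass (edgeR adjusted p = 0.0943). MRPL22 passed in 11 of 15 alternatives, and also failed without TMM factors and with limma on RPKM at either pseudocount. MRPL22 lies at 5:154941070-154969411 on the plus strand and shares no exonic base with another gene.

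MRPL58, also called ICT1, a peptidyl-tRNA hydrolase that frees stalled mitochondrial ribosomes and is built into the large subunit, had 24.3, 24.9 and 23.9 CPM in siTRAIP libraries and 22.4, 21.8 and 20.3 CPM in siNC libraries. The groups were apart, with siNC replicate 3 lowest. In the edgeR fit it had a log2 fold change of 0.18 with an SE of 0.06 (adjusted p = 0.0495), the value nearest the threshold. Only 3 of 15 alternatives kept the call, and DESeq2 gave 0.18 with an adjusted p of 0.0791. The call was also lost without TMM factors and with limma on RPKM at either pseudocount. MRPL58 lost its call when any 1 library other than siTRAIP replicate 3 was left out, with edgeR adjusted p values of 0.071 to 0.238. It lies at 17:75012670-75021261 on the plus strand, and its exons are shared with no other gene.

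**Figure D2:**
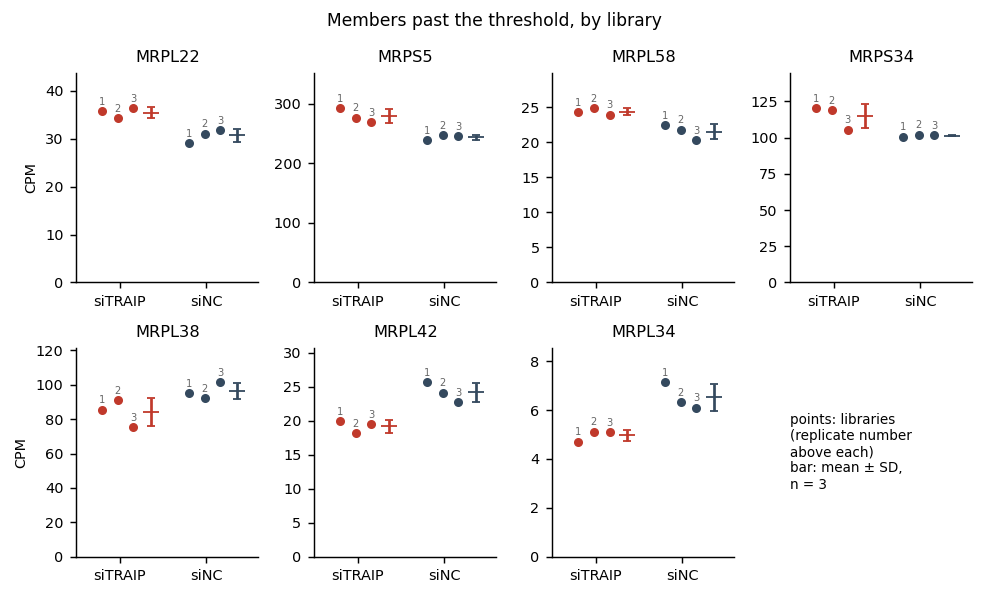
CPM of the 7 members that passed the threshold, 1 panel per gene, with each y axis from 0. Points are libraries with their replicate numbers, siTRAIP left of siNC, and bars give the mean and SD (n = 3). In each panel the groups do not overlap, and MRPL38 has its nearest libraries at 91.2 CPM (siTRAIP) and 92.4 CPM (siNC).

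The 5 members next in order of adjusted p all had negative log2 fold changes. MRPL35, a homologue of bacterial bL35, averaged 34.5 ± 1.17 CPM in siTRAIP and 38.4 ± 1.83 CPM in siNC (SD, n = 3 each), and edgeR gave it -0.15 on the log2 scale with an SE of 0.05 (adjusted p = 0.0557). MRPL47, a large-subunit protein with a bacterial homologue, averaged 67.3 ± 2.77 CPM in siTRAIP and 73.4 ± 1.78 CPM in siNC, with a log2 fold change of -0.12 (edgeR adjusted p = 0.0839). MRPS11, which lines the messenger RNA path of the small subunit in its bacterial form, averaged 88.3 ± 4.63 CPM in siTRAIP and 96.1 ± 3.24 CPM in siNC, with a log2 fold change of -0.12 (edgeR adjusted p = 0.0893). MRPL17 averaged 48.9 ± 1.91 CPM in siTRAIP and 53.4 ± 2.64 CPM in siNC, with -0.13 (edgeR adjusted p = 0.104). MRPL33 averaged 55.7 ± 1.62 CPM in siTRAIP and 60 ± 1.64 CPM in siNC, with -0.11 (edgeR adjusted p = 0.137), and 21.1% of its exonic bases are shared with BABAM2 on the same strand. MRPL35 and MRPL47 passed without siTRAIP replicate 3 (edgeR adjusted p = 0.0148 and 0.0102). In the main fit none of the 5 passed the threshold, but in each of them all siTRAIP libraries lay below all siNC libraries. Without TMM factors all 5 passed, as falls. MRPL35, MRPL47 and MRPL33 also passed with limma on log2(RPKM + 0.1) and log2(RPKM + 1), and MRPL35 with the stricter filter on CPM. At an unadjusted p of 0.05 or less there were 17 members (21.8%, against 24.8% of all genes tested), the 7 called ones, these 5, and MRPS12, MRPS18A, MRPS26, MRPS15 and MRPL20.

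Without regard to the test, more members had their groups apart in the lower direction than in the higher one. In 17 of 78 members (21.8%, against 14.4% of all genes tested) every siTRAIP library lay below every siNC library. In 4 (5.13%, against 14.8%) every siTRAIP library lay above, and these are the 4 that rose. MRPS12, the homologue of a bacterial decoding-centre protein, was among the 17 with 9.56, 11.2 and 10.95 CPM in siTRAIP and 11.9, 11.6 and 12.7 CPM in siNC (log2 fold change -0.19, edgeR adjusted p = 0.14). MRPS18C was among them with the smallest log2 fold change, -0.06 (edgeR adjusted p = 0.449), at 177 to 185 CPM in siTRAIP and 186 to 193 CPM in siNC. In MRPS18C, 40.2% of exonic bases are shared with ABRAXAS1 on the opposite strand. The counts of members with groups apart depend on how libraries are scaled: without TMM factors 33 members had siTRAIP below (22.9% of all genes) and 3 had it above (9.27% of all genes).

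Most members differed by little between the groups. The median log2 fold change of the 78 members was -0.03, against -0.002 over all genes tested. A negative value was found in 50 members (64.1%, against 50.4% of all genes tested). The median absolute log2 fold change was 0.06 in the members, 0.12 over all genes and 0.10 over 9731 protein-coding genes with a mean CPM within the members' range. For 70 members the 95% interval of the fold change lay within 0.8 to 1.25, and 66 of these were not called. The 8 with wider reach were MRPL42, MRPL34 and MRPL38, which fell, and MRPL23, MRPL54, MRPS12, MRPS24 and MRPS36, which did not pass.

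**Figure D3:**
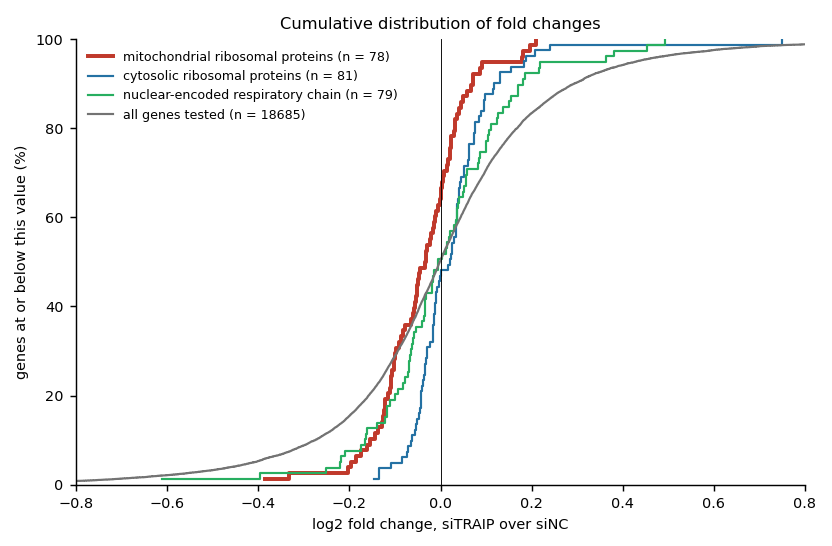
Cumulative share of genes (y axis, percent) at or below a given log2 fold change, siTRAIP over siNC (x axis, cut at 0.8 either way). Curves are the 78 members, 81 cytosolic ribosomal protein genes, 79 nuclear genes of the respiratory chain and all 18685 genes tested. The respiratory chain list was made by symbol and also holds ATP synthase genes and some pseudogene entries. The member curve crosses 0 at 64.1%, that of all genes at 50.4%, and the member curve is the steeper of the 2.

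By role, the small subunit had 2 rises and 0 falls among 26 members, with a median log2 fold change of -0.04. The large subunit had 2 rises and 3 falls among 51 members, with a median of -0.03. Without TMM factors these counts were 1 rise and 5 falls in the small subunit and 0 and 11 in the large one. Homologues of bacterial proteins had 2 rises and 1 fall among 46 members (median -0.02), and mitochondria-specific members had 2 and 2 among 31 (median -0.05). Without TMM factors the homologues had 1 rise and 10 falls and the mitochondria-specific members 0 and 6. Of all genes tested, 7.47% rose and 5.34% fell, and without TMM factors 4.48% rose and 11% fell. No difference between the subunits or classes was tested. MRPL12, the stalk protein that recruits translation factors, averaged 43.3 ± 1.57 CPM in siTRAIP and 44.8 ± 0.6 CPM in siNC (SD, n = 3 each), a fold of 0.968 with a 95% interval of 0.903 to 1.04. In MRPL12, 68.2% of exonic bases are shared with AC139530.2 on the same strand, so its counts may include reads of that gene. MRPL45, which anchors the ribosome at the inner membrane, averaged 27.8 ± 1.08 CPM in siTRAIP and 28.3 ± 1.37 CPM in siNC, a fold of 0.978 with a 95% interval of 0.901 to 1.06. Neither passed the edgeR test (adjusted p = 0.605 and 0.799).

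Levels between members were compared per length, as deposited RPKM (counts relative to exonic length and library total, with no TMM factor), and spread over more than 100-fold. MRPS34 was highest with 106.6, 107.1 and 94.3 RPKM in siTRAIP and 94, 94 and 95.3 RPKM in siNC. MRPL51 followed with 60.2 ± 3.39 RPKM in siTRAIP and 61.5 ± 0.72 RPKM in siNC, then MRPS9 with 58.9 ± 1.58 RPKM in siTRAIP and 61.6 ± 2.86 RPKM in siNC (SD, n = 3 each). MRPL51 and MRPS9 did not differ from each other beyond their spread. In MRPL51, 31.3% of exonic bases are shared with NCAPD2 on the opposite strand. MRPL47, at 48.1 ± 2.12 RPKM in siTRAIP and 54.7 ± 0.987 RPKM in siNC, and MRPS35, at 47.6 ± 1.42 RPKM in siTRAIP and 49.6 ± 1.8 RPKM in siNC, completed the 5 highest. The median member had 12.6 RPKM over the 6 libraries.

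At the low end MRPL23 had 0.636, 0.707 and 0.711 RPKM in siTRAIP and 0.84, 0.638 and 0.949 RPKM in siNC, with overlapping groups (log2 fold change -0.18, SE 0.16, edgeR adjusted p = 0.557). MRPL42, which fell, was next with 1.15 ± 0.046 RPKM in siTRAIP and 1.51 ± 0.0882 RPKM in siNC. Its long annotated exon union enters this value, since the median member has 2502 exonic bases. MRPL55 had 1.48 ± 0.245 RPKM in siTRAIP and 1.53 ± 0.124 RPKM in siNC, MRPS24 had 2.09 ± 0.199 RPKM in siTRAIP and 2.36 ± 0.095 RPKM in siNC, and MRPS36 had 3.07 ± 0.604 RPKM in siTRAIP and 3.32 ± 0.534 RPKM in siNC. None of MRPL55, MRPS24 and MRPS36 passed the edgeR test (adjusted p = 0.997, 0.494 and 0.872).

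**Figure D4:**
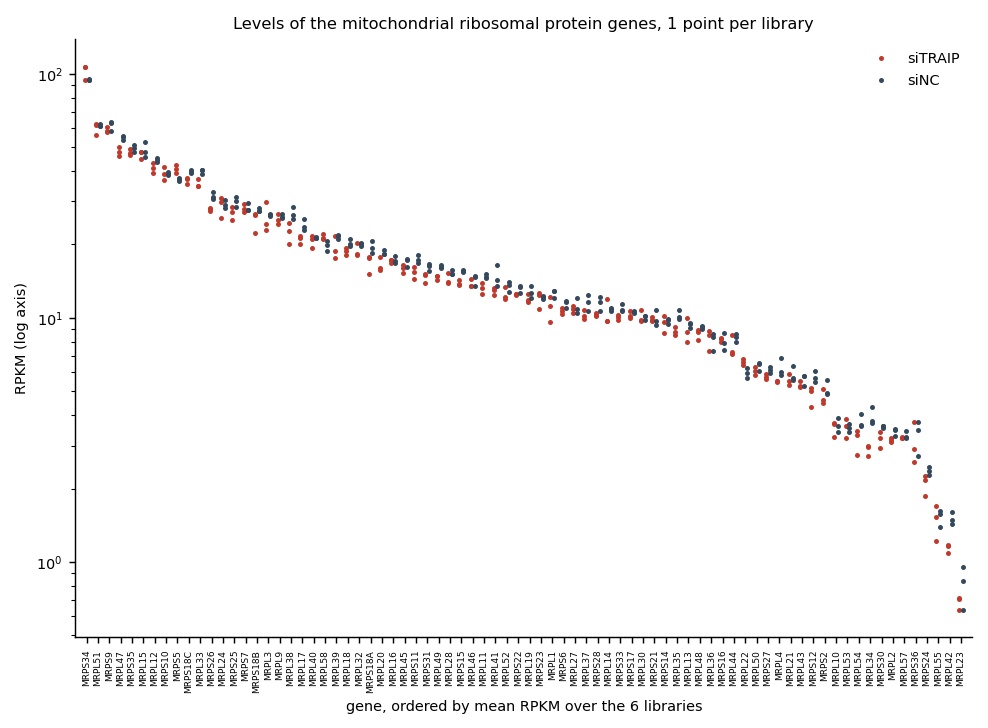
RPKM of each member in each library (y axis, log scale), with members ordered along the x axis by their mean over the 6 libraries. Red points are siTRAIP and dark points siNC. Levels run between 98.5 (MRPS34) and 0.747 RPKM (MRPL23) in the mean, and the 2 colours lie close together at nearly every gene.

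Summed over all members, siTRAIP libraries 1 to 3 held 3501, 3541 and 3459 CPM, and siNC libraries held 3537, 3538 and 3537 CPM. The siTRAIP sums spread around the siNC ones, with 1 above and 2 below. The small-subunit sum was 1779 ± 38.3 CPM in siTRAIP and 1763 ± 9.58 CPM in siNC, a difference within the siTRAIP spread. MRPS5, which rose, is part of that sum and averaged 279 CPM in siTRAIP and 244 CPM in siNC. The large-subunit sum was 1717 ± 27.9 CPM in siTRAIP and 1770 ± 9.4 CPM in siNC (SD, n = 3 each). All 3 siTRAIP sums of the large subunit (1688, 1744 and 1719 CPM) lay below the lowest siNC sum (1760 CPM). As a share of unscaled library totals, members took 0.339% to 0.349% in siTRAIP and 0.357% to 0.364% in siNC. The small subunit took 0.1699% to 0.1768% in siTRAIP and 0.1791% to 0.1804% in siNC. The large subunit took 0.1639% to 0.1721% in siTRAIP and 0.1778% to 0.1828% in siNC. Unscaled, both subunits were thus lower in every siTRAIP library.

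The median coefficient of variation of a member within a group was 4.34% in siTRAIP and 3.7% in siNC. MRPL3, a homologue of bacterial uL3, had the most unequal spread shown here, 14.1% in siTRAIP and 0.423% in siNC. Its siTRAIP libraries held 63.8, 66.9 and 82.5 CPM and its siNC libraries 69.8, 70.1 and 70.4 CPM, so siTRAIP replicate 3 alone lay above siNC. MRPL3 was picked out after its values were seen. Relative to the mean of siTRAIP replicates 1 and 2, replicate 3 was higher in 32 of 78 members, and without it 4 members rose and 5 fell (7.71% and 6.03% of all genes).

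The shares of members that hold each promoter word were set beside those of all tested genes, as a description with no test. The ETS word stood in 30 of 69 members (43.5%), against 21.6% of 10592 tested genes with a window. The YY1 word stood in 13 (18.8%), against 4.54%. NRF1 words with any centre base stood in 9 (13%, against 12.9%), the full palindrome in 1 (1.45%, against 2.61%) and the E-box in 9 (13%, against 12.4%). Words were sought on both strands, and the full NRF1 palindrome is counted among those with any centre base. Counted per window and strand, of 14 YY1 matches in members 10 (71.4%) lay after the start, against 64% of all such matches. All 12 NRF1 matches with any centre base lay before it. These repeat some sites: the MRPL17 palindrome matched on both strands, and a MRPL34 site lay in overlapping windows. Cytosolic ribosomal protein genes held the ETS word in 35.9% and the YY1 word in 7.81%, and respiratory chain genes in 30% and 16%.

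Fold changes were also set side by side for members that hold a word and members that do not, with no test. The median log2 fold change was -0.02 in the 30 members with the ETS word, where 2 rose and 1 fell, and -0.05 in the 39 without it, where 2 rose and 2 fell. It was -0.05 in the 13 with the YY1 word (1 rose, 2 fell) and -0.03 in the 56 without it (3 rose, 1 fell). It was -0.05 in the 9 with the E-box (1 rose, 0 fell) and -0.03 in the 60 without it (3 rose, 3 fell). It was -0.005 in the 9 with an NRF1 word with any centre base (0 rose, 1 fell) and -0.04 in the 60 without one (4 rose, 2 fell). Of all genes tested, 7.47% rose and 5.34% fell. A match is a run of letters and no evidence that a factor binds there.

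**Figure D5:**
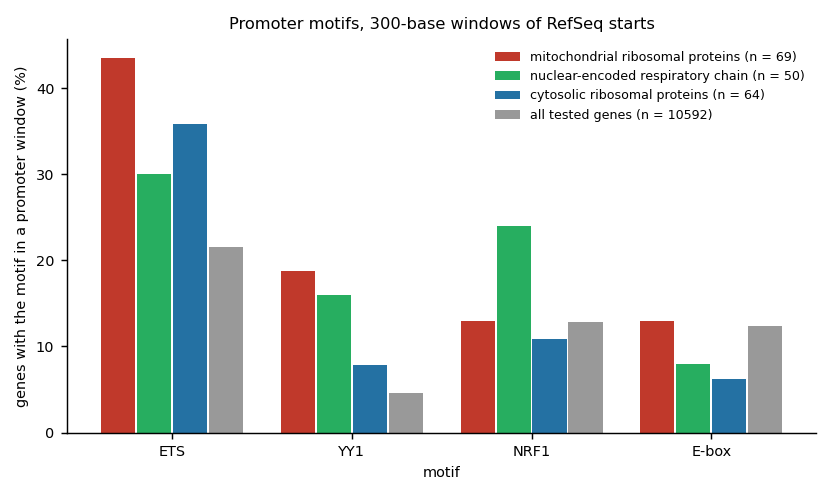
Percent of genes (y axis) with each word in a promoter window, for members (69 genes), respiratory chain genes (50), cytosolic ribosomal protein genes (64) and all tested genes with a window (10592). NRF1 is the word with any centre base. Members are highest for ETS (43.5%) and YY1 (18.8%) and level with all genes for NRF1 and E-box.

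The genes for the factors named after these words did not pass the edgeR test. NRF1 averaged 10.2 ± 0.39 CPM in siTRAIP and 10.6 ± 1.03 CPM in siNC, and GABPA, the ETS-family subunit of GABP, averaged 86.8 ± 0.489 CPM in siTRAIP and 86.6 ± 0.498 CPM in siNC (SD, n = 3 each). YY1 averaged 67.3 ± 1.36 CPM in siTRAIP and 68 ± 2.98 CPM in siNC. MYC averaged 34.3 ± 1.16 CPM in siTRAIP and 36.9 ± 2.21 CPM in siNC, and edgeR gave it -0.11 on the log2 scale with an SE of 0.05 (adjusted p = 0.219). Of 9 regulators tested, ESRRA, PPARGC1B and PPRC1 included, edgeR called 0, with 1 (ESRRA) at an unadjusted p of 0.05 or less, and DESeq2 called 0. Without TMM factors ESRRA and MYC fell, 2 of the 9. Their groups overlapped in all 9. PPARGC1A had at most 8 reads in a library and was not tested.

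A pair of 7-base words for genes that rose (TCGGAGA or CGGAGAA) and a pair for genes that fell (ACAGTCT or CAGTCTA) had been chosen on fold changes of these libraries, the members included, so the counts are a description. The first pair stood in the coding sequence or 3′ UTR of 9 of 78 members (11.5%), against 18.7% of 12648 genes with a coding transcript and 32.6% of all rises among them. Of the 4 members that rose, MRPL22 held it, and of the 3 that fell, MRPL38 did. The second pair stood in 12 members (15.4%, against 25.3%), and in none of the 3 that fell, where 41.9% of all falls held it. MRPL35, which did not pass, held it in its 3′ UTR. Members are short, with a median coding sequence of 598.5 bases against 1437 and a median 3′ UTR of 286.5 bases against 822. MRPL17, which did not pass either, held CGGAGAA in its coding sequence and both words of the second pair in its 3′ UTR. These sites, with the word in capitals, are all those in the 7 called members and the 5 next to the threshold; the 2 words overlap at 1 site in MRPL35.
MRPL22, coding sequence: cctggagaaccTCGGAGAccagcagaaat
MRPL38, coding sequence: ctgtgcgagtgTCGGAGAtggcggggctt
MRPL35, 3′ UTR: attgagtggttACAGTCTagggcagtggt
MRPL17, coding sequence: gaggggctacgCGGAGAAgctcatcgact
MRPL17, 3′ UTR, first site: atgtaaaatggACAGTCTtgatggggttg
MRPL17, 3′ UTR, next site: atccaaatgctCAGTCTAcctgagatagt

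Of the members, 21 start head to head with a neighbour, a gene on the opposite strand that starts within 1000 bases. MRPL46 and MRPS11 start 34 bases apart, with log2 fold changes of 0.01 and -0.12, neither of which passed. EME2, a DNA repair nuclease subunit that starts 52 bases from MRPS34, had a log2 fold change of -0.21 (edgeR adjusted p = 0.167) where MRPS34 rose. NDUFS6, a complex I subunit 34 bases from MRPL36, rose by 0.15 on the log2 scale (edgeR adjusted p = 0.0392), while MRPL36 had 0.09 and did not pass (edgeR adjusted p = 0.553). NDUFS6 was the sole called neighbour outside the family among these pairs.

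The wider machinery of mitochondrial translation also held small changes in both directions. Among 5 tested mitochondrial ribosomal proteins with other names, AURKAIP1 fell (65.3 ± 1.97 CPM in siTRAIP, 72.7 ± 2.59 CPM in siNC, log2 fold change -0.16, edgeR adjusted p = 0.0255), and DAP3, PTCD3, GADD45GIP1 and CHCHD1 did not pass. Among 28 assembly factors 3 rose and 2 fell. The largest of these changes was in RCC1L, a factor of large-subunit assembly, at 26 ± 0.855 CPM in siTRAIP and 20.1 ± 0.892 CPM in siNC (log2 fold change 0.37, edgeR adjusted p = 1.32e-04). MTERF4, which guides a ribosomal RNA methyltransferase, rose by 0.23 and the GTPase gene GTPBP10 by 0.26, while the RNA helicase gene DHX30 fell by 0.20 on the log2 scale. Their edgeR adjusted p values were between 0.00295 and 0.00898.

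Among 15 translation factors 2 rose and 1 fell. MTFMT, which formylates the initiator transfer RNA, had 3 to 3.63 CPM in siTRAIP and 2.23 to 2.58 CPM in siNC (log2 fold change 0.46, edgeR adjusted p = 0.0236). MTIF2, the initiation factor that binds it, rose by 0.18 (edgeR adjusted p = 0.0176), and the ribosome recycling factor gene MRRF fell by 0.22 on the log2 scale (edgeR adjusted p = 0.00217). Another list held 20 genes, the mitochondrial aminoacyl-tRNA synthetases together with the amidotransferase subunits QRSL1, GATB and GATC. Of these 20, 1 rose and 2 fell, CARS2 and NARS2 being the falls. Among 19 genes of mitochondrial transcription and RNA maintenance, the helicase gene TWNK, listed under its older name C10orf2, rose by 0.30, and SSBP1 and TRMT10C fell by 0.19 and 0.17 on the log2 scale (edgeR adjusted p values of 0.00331 to 0.0145).

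The partners of the member proteins were set beside them. Mitochondrial ribosomal RNAs gave log2 fold changes of -0.07 for MT-RNR1 and 0.004 for MT-RNR2, and neither passed the edgeR test (adjusted p = 0.363 and 0.975). Of 13 messenger RNAs that mitochondrial ribosomes translate, edgeR called 0. Their median log2 fold change was 0.09 (0.03 without TMM factors), and 11 of 13 were above 0, against 9261 of 18685 genes tested. With TMM factors, every siTRAIP library lay above every siNC library in 5 of the 13, and in 0 below. For these 13 the count was not made without TMM factors. The factors raise siTRAIP values relative to siNC, so fewer of the 13 may stay above without them. Of all genes tested, 14.8% had siTRAIP above and 14.4% below, and without TMM factors 9.27% above and 22.9% below. MT-ND6 had 687, 678 and 2283 CPM in siTRAIP and 463 to 597 CPM in siNC. At an unadjusted p of 0.05 or less there were 2 of these 13, and DESeq2 called 2 higher, MT-ND4 and MT-CYB. Without TMM factors MT-RNR1 fell. Cytosolic ribosomal protein genes had 4 rises and 2 falls among 81 tested, with a median log2 fold change of 0.02 (2 rises, 7 falls and a median of -0.04 without TMM factors). RPL7 and RPL22 were among the rises, and RPL15 was among the falls. Nuclear genes of the respiratory chain had 5 rises and 2 falls among 79, with a median of -0.005 (2 rises, 8 falls and a median of -0.06 without TMM factors). This list was made by symbol, so it also holds ATP synthase genes and some pseudogene entries. In share, 8.97% of members, 7.41% of cytosolic ribosomal protein genes and 8.86% of respiratory chain genes were called in the main edgeR fit, each below the 12.8% of all genes tested. For members this order depended on the setting. Without TMM factors 21.8% of members and 15.5% of all genes were called, and with limma on log2(RPKM + 0.1) 8.97% and 8.14%. In the main fit the share was 17.9% of assembly factors and 20% of translation factors. It was 15% of the list of synthetases and amidotransferase subunits, and 15.8% of the genes of mitochondrial transcription and RNA maintenance. No difference between these lists was tested.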

How the data were processed

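The 6 libraries were mapped to groups by their titles. The authors deposited raw gene counts and RPKM values; recomputing RPKM from those counts, gene lengths and their library sums gave the deposited values to a relative 1.3e-06. The submitters' processing notes list Trimmomatic 0.36, Subread 1.5.1, featureCounts and GRCh38; which aligner, annotation release and strand setting was not given in the sources used here. Exon models of 77 of the 78 members equal GENCODE v29, which gave overlaps and coding transcripts; positions of genes follow the deposited table.

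Counts were tested in edgeR 4.0.16 (R 4.3.3) with filterByExpr, TMM factors, a quasi-likelihood fit (robust=TRUE) and the 2-sided F-test, adjusted by Benjamini-Hochberg over 18685 genes, threshold 0.05. SEs are the fold change divided by the square root of F, and 95% intervals use the fit's degrees of freedom. The common biological coefficient of variation was 5.73%. The scripts were tested on simulated data. RPKM values are used for levels between genes and, as log2, in limma 3.58.1, with pseudocounts of 0.1 and 1. Other alternatives were DESeq2 1.42.0, other scaling factors and filters, robust=FALSE, a replicate block and each library left out.

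Replicates were treated as unpaired. Members, gene lists and words were chosen with earlier results of these data known; the lists of mitochondrially encoded genes were added after the files were read. Named genes are all called members, the 5 next by adjusted p, the 5 highest and 5 lowest by RPKM, up to 4 called genes per list (a few of these are not reported here), TRAIP and the regulators; MRPL12, MRPL45, MRPL3, MRPS12, MRPS18C, MRPL36, MRPL46, EME2, NDUFS6, MT-RNR1, MT-ND4, MT-CYB and MT-ND6 were named after their values were seen.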

Additional observations from a re-analysis of the deposited data

How the results depend on the processing

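No result for a called member changed direction in any of 15 alternatives. Of 105 such values 70 kept the call and 35 lost it, and the 5 next members gained one in 14 of 75. Without TMM factors all genes gave 838 rises and 2050 falls, and members 17 calls, of which 1 rose and 16 fell. In 33 members siTRAIP lay below siNC throughout (42.3%, against 22.9% of all genes). The median log2 fold change was -0.093 in members and -0.062 over all genes. limma on log2(RPKM + 0.1) and log2(RPKM + 1) called 1521 and 1517 genes, 454 and 450 of them higher. In both, 0 members rose, 7 fell, and 33 had siTRAIP below siNC throughout (42.3%, against 22.9% of all genes). The member median was -0.090 and -0.084, against -0.058 and -0.032 over all genes. TMM factors lower the effective siTRAIP library sizes relative to siNC, which moves every fold change up by about the same amount. With the replicate number as a block, members gave 3 rises and 2 falls and all genes 1279 and 866; MRPL38 and MRPL58 lost their calls, and same-numbered libraries did not deviate together (correlations of -0.0292 to 0.0113 over 18685 genes), so the numbers give no pairing. Leaving out 1 library at a time gave 1480 to 2622 genes called, 878 to 1471 higher and 602 to 1151 lower. Among members it gave 2 to 9 calls, 1 to 4 rises, 1 to 5 falls, 4 to 9 with siTRAIP above throughout (17.9% to 20.5% of all genes), 21 to 29 with it below (18.7% to 20.6%), and medians of -0.058 to -0.022. The fewest calls came without siNC replicate 1 (2 members), siTRAIP replicate 1 (3) and siNC replicate 3 (4). The cause of these losses was not tested. DESeq2 gave 3 rises and 3 falls among members.

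Signs near 0 turned in genes that passed in no setting. Without TMM factors MRPL51 was at -0.029, MRPS35 was at -0.057, MRPL55 was at -0.058, GABPA was at -0.058. With limma on log2(RPKM + 0.1) and log2(RPKM + 1), MRPL51 was at -0.031 and -0.031, MRPS35 was at -0.057 and -0.056, MRPL55 was at -0.048 and -0.029, GABPA was at -0.058 and -0.055. With no filter on low counts MRPL55 was at -0.0017 and GABPA at -0.00041. With 1 library left out, MRPS9 lay between -0.051 and 0.025, MRPS35 lay between -0.029 and 0.026, MRPL55 lay between -0.11 and 0.14, MRPS36 lay between -0.20 and 0.041, NRF1 lay between -0.11 and 0.026, GABPA lay between -0.0042 and 0.0063, YY1 lay between -0.056 and 0.00026, PPRC1 lay between -0.067 and 0.011. Among members with low counts, MRPL23, MRPL55 and MRPS36 had SEs of 0.14 to 0.16 on the log2 scale, against a median of 0.057 over the members.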
